A study of Homo sapiens with 20 samples.

Results

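The AP-1 and EGR immediate early genes are a set of 10 named genes, FOS, FOSB, JUN, JUNB, JUND, EGR1, EGR2, EGR3, ATF3 and IER2. Each was taken by its symbol in the annotation of the array, using the probe set that carries this symbol alone and has the highest mean over the 20 arrays. This gave 9 of the 10 genes, out of 14232 genes with such a probe set, and each of the 9 had a single probe set. EGR2 was not analysed here.

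Immediate early genes are switched on within minutes of a growth factor, stress or antigen signal, without new protein synthesis, and their RNAs are short lived. The products of the FOS and JUN families pair through leucine zippers to form the AP-1 transcription factors, ATF3 is a stress-induced zipper protein that can pair with JUN proteins, and the EGR proteins are zinc finger factors that bind GC-rich sites. MAP kinases and serum response factor (SRF) with its TCF partners are the best known inducers of the set, and in B lymphocytes the antigen receptor is one of the signals that induces it.

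The arrays were exon arrays of total RNA from a pair of human lines. LP-1 was derived from multiple myeloma, the malignancy of plasma cells, while Raji came from a Burkitt lymphoma, a B cell malignancy, and the lines were grown in different media (IMDM for LP-1 and RPMI for Raji). Each line was given a BET inhibitor at 500 nM for 4 h or 8 h, or the inactive enantiomer, its mirror-image form, at the same dose for the same times, or was left untreated and taken at 0 h, with 2 biological replicates in each of the 10 groups. BET inhibitors keep proteins of the BET bromodomain family off acetylated histones. The labels do not name the compound, and untreated samples stand at 0 h only among those analysed here, so every comparison with untreated cells joins compound and time in culture.

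Levels are given as deposited, in log2 expression. A change is a difference of mean log2 levels, given ± its standard error, and a gene is called where its p, adjusted over all 22011 probe sets, is under 0.05. Array medians lay between 5.13 and 5.39, and Pearson's r between the replicates of a group was 0.973 to 0.989 across probe sets. In LP-1 at 4 h with the BET inhibitor the 75th percentile of an array was 6.80 for replicate 1 and 7.03 for replicate 2. All 7 plasma cell markers lay above the array median on all 10 LP-1 arrays, and all 6 measured markers of mature B cells did so on all 10 Raji arrays. The lists did not part the lines fully. The plasma cell markers XBP1 and CD38 also lay above the median on all 10 Raji arrays, and 2 lay below it on all. CD38 was higher in Raji (8.73 to 9.22) than in LP-1 (7.84 to 8.42). The B cell marker CD74 lay above the median on all 10 LP-1 arrays, and 2 lay below it on all. Of the T and NK cell markers 5 of 6, and of the myeloid markers 4 of 4, lay below the median on every array of both lines. Of the epithelial and fibroblast markers 3 of 6 did so, while the keratin gene KRT8 lay above it on all 10 Raji arrays and on 9 LP-1 arrays. The arrays measured bulk RNA, so more RNA in each cell and more cells with the RNA cannot be told apart. No test against background was made, and values of different genes are not compared, since each rests on its own probes.

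The sequences just before the starts of 5 of the genes are given here because these are the members with the largest differences in LP-1 below. They were read from RefSeq on GRCh38.p14, 5′ to 3′ on the strand of the gene and ending at the last base before the annotated start. Windows from 250 bases before to 50 after a start were found for 8 of the 9 measured genes, all but EGR3. Capitals mark motif matches: CArG boxes, the sites of SRF, in EGR1; TGACATCA, a variant of the cyclic AMP response element, and GC boxes (GGGCGG on either strand) in JUN and ATF3; GC boxes and an ETS core (CCGGAA on either strand) in IER2; and a GC box and TATAAA in FOS.
EGR1, chr5:138465359-138465478, plus strand: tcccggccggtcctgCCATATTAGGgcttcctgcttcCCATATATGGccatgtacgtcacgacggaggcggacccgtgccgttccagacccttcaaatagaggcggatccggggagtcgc
JUN, chr1:58784048-58784177, minus strand: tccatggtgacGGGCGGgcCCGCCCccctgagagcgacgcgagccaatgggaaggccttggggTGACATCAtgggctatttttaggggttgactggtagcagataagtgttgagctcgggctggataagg
ATF3, chr1:212565277-212565406, plus strand: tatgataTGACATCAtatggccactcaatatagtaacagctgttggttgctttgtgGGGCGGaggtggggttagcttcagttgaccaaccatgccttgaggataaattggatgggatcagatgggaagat
IER2, chr19:13150261-13150410, plus strand: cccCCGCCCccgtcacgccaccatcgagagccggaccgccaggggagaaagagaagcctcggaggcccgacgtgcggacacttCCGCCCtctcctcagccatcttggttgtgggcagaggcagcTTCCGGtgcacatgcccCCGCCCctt
FOS, chr14:75278698-75278827, plus strand: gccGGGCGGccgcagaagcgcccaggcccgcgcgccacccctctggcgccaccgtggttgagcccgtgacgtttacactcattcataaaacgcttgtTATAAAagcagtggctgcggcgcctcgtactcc

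EGR1 was the only one of the 8 genes with a CArG box in its window, and bases farther than 250 before a start were not searched. It had 2, CCATATTAGG at bases -105 to -96 and CCATATATGG at -83 to -74 from the start, and 1.29% of the 35116 promoter windows of the same length held such a box on either strand. JUN and ATF3 shared TGACATCA, at -67 to -60 in JUN and at -123 to -116 in ATF3, and 2.61% of windows held it. ATF3 has a pair of annotated starts, and the sequence is that of the first in the table; the window of the other held no TGACATCA, and the probe set does not tell them apart. JUND alone had the full cyclic AMP response element TGACGTCA, at -200 to -193, found in 1.85% of windows. The EGR site GCGNGGGCG was found in EGR1 itself, at -198 to -190, and in 9.43% of all windows. The AP-1 site TGACTCA (4.95% of windows) and the E-box CACGTG (7.26%) were in none of the 8. GC boxes were in 6 of the 8 genes and in 45.0% of windows, TATAAA in 4 and 11.5%, and the ETS core in 2 and 17.2%. Matches were sought on both strands, none of the motifs overlapped in these windows, and a match is a description of the letters only.

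The central comparison was between the BET inhibitor and the inactive enantiomer, matched for dose and time. EGR1 rose with the inhibitor in LP-1 at both times and in Raji at 4 h, ATF3 rose in LP-1 at 4 h, and JUN and IER2 rose in LP-1 at 8 h. No member fell in any of the 4 comparisons. In LP-1 the members called were 2 of 9 at 4 h and 3 of 9 at 8 h, where 2.28% and 5.73% of all probe sets were called in either direction. Without 1 array in turn these shares were 0.291% (without inactive enantiomer replicate 2) to 4.41% (without inhibitor replicate 2) at 4 h, and 2.20% to 6.82% at 8 h. In Raji 1 of 9 was called at 4 h and 0 of 9 at 8 h by limma, against 1.78% and 1.88% of all probe sets. Without 1 array in turn the Raji shares were 0.123% (without inhibitor replicate 2) to 2.33% at 4 h and 0.454% to 2.21% at 8 h. At 8 h in Raji no member had an unadjusted p under 0.05, against 13.0% of all probe sets. The median change of the 9 genes in LP-1 was 0.58 at 4 h and 0.43 at 8 h, and over all probe sets it was -0.04 and 0.06. In Raji these medians were -0.01 at 4 h and 0.07 at 8 h for the 9 genes, and 0.01 and 0.00 for all probe sets.

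**Figure D1:**
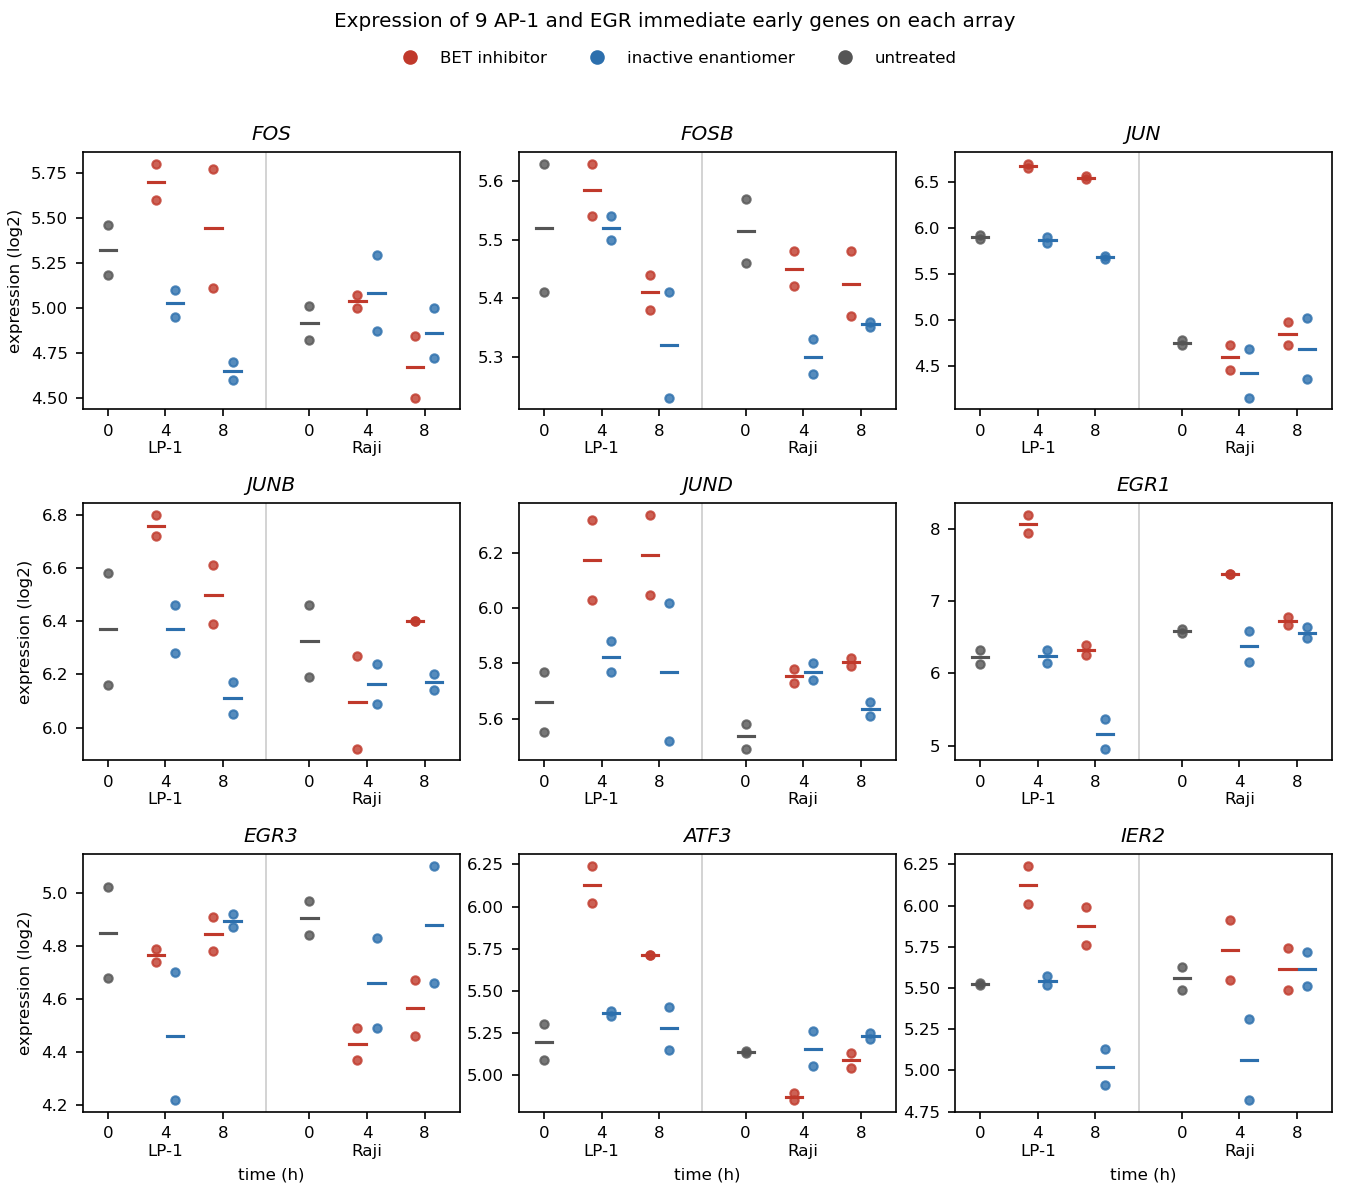
Log2 expression of the 9 measured genes on each array (points) with the mean of each group (bars), by time in h, LP-1 left and Raji right in each panel; BET inhibitor in red, inactive enantiomer in blue, untreated in grey. EGR1 in LP-1 at 4 h stands at 7.94 and 8.19 with the inhibitor, above all 18 other arrays, and JUN in LP-1 lies above every Raji array in every group.

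EGR1, a zinc finger factor that carries growth factor signals to growth and differentiation genes, had the largest change of the set. In LP-1 at 4 h it stood at 7.94 and 8.19 on the inhibitor arrays, against 6.14 and 6.33 on the arrays of the inactive enantiomer. The inhibitor arrays were far above, and the rise was 1.83 ± 0.17, or 3.55-fold (95% interval 1.46 to 2.20, adjusted p = 0.000321). At 8 h LP-1 had 6.26 and 6.40 with the inhibitor, against 4.96 and 5.37 with the inactive enantiomer, again without overlap (1.16 ± 0.17, 2.24-fold, adjusted p = 0.00223). Both calls were kept without each of the 4 arrays in turn.

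In Raji at 4 h EGR1 stood at 7.37 and 7.38 on the inhibitor arrays, against 6.16 and 6.59 on those of the inactive enantiomer. It rose by 1.00 ± 0.17, or 2.0-fold (adjusted p = 0.0127). The groups did not overlap, but the call was lost without either inhibitor array or without inactive enantiomer replicate 1 (highest adjusted p = 0.117) and when Raji was fitted alone (adjusted p = 0.0594). At 8 h Raji had 6.78 and 6.67 with the inhibitor, against 6.49 and 6.64 with the inactive enantiomer, and the change of 0.16 ± 0.17 did not pass (95% interval -0.21 to 0.53, adjusted p = 0.808).

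EGR3, the other member of the EGR family with a probe set, did not pass in any of these comparisons. Its changes in LP-1 were 0.31 ± 0.19 at 4 h and -0.05 ± 0.19 at 8 h, and in Raji -0.24 ± 0.19 and -0.32 ± 0.19 (adjusted p from 0.524 to 0.931). Over all 20 arrays EGR3 ranged from 4.22 to 5.10 with a median of 4.76, below the array medians.

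FOS, the partner of JUN in the classical AP-1 dimer, was higher on both inhibitor arrays in LP-1 without passing the test. At 4 h LP-1 had 5.60 and 5.80 with the inhibitor, against 4.95 and 5.10 with the inactive enantiomer (0.67 ± 0.22, adjusted p = 0.151). At 8 h it had 5.77 and 5.11 with the inhibitor, against 4.60 and 4.70 with the inactive enantiomer (0.79 ± 0.22, adjusted p = 0.0521). The inhibitor replicates at 8 h were far apart, and the change ran from 0.46 to 1.12 with 1 array left out in turn. Of 7 other settings of the limma analysis, FOS passed at 8 h in 2. These were without the probe sets of lowest mean (adjusted p = 0.0303) and with variances moderated along intensity (adjusted p = 0.0476). Over the 7 settings the adjusted p reached 0.133. In Raji its groups overlapped at both times, with changes of -0.05 ± 0.22 and -0.19 ± 0.22.

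FOSB, a second Fos protein, varied least, between 5.23 and 5.63 over the 20 arrays. Its changes with the inhibitor were 0.06 to 0.15 over the 4 comparisons, each ± 0.11 (adjusted p from 0.625 to 0.891). The 95% intervals reached at most 0.39. They bound the signal of this probe set, and whether that signal follows FOSB RNA was not tested.

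JUN, the prototype of the Jun family, stood at 6.70 and 6.65 in LP-1 at 4 h with the inhibitor, against 5.90 and 5.84 with the inactive enantiomer. At 8 h it stood at 6.57 and 6.53 with the inhibitor, against 5.70 and 5.67 with the inactive enantiomer. The inhibitor and inactive enantiomer arrays were well apart at both times. The test pools the spread over all 10 groups, and Raji replicates were farther apart, at 4.36 and 5.02 with the inactive enantiomer at 8 h. JUN rose at 8 h (0.87 ± 0.20, 1.82-fold, adjusted p = 0.0272), but the call was lost without any 1 of the 4 arrays (adjusted p from 0.0805 to 0.134). The change of 0.81 ± 0.20 at 4 h did not pass (adjusted p = 0.0638); it passed with LP-1 fitted alone (adjusted p = 0.0475), after quantile normalization (1.00, adjusted p = 0.0294), with arrays centred on their medians (adjusted p = 0.0393) and without the probe sets of lowest mean (adjusted p = 0.0364). In Raji JUN had changes of 0.17 ± 0.20 at both times, with overlapping groups. All its Raji values, from 4.16 to 5.02, lay below the array medians.

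JUNB and JUND, Jun proteins that often oppose JUN in cell growth, were higher on both LP-1 inhibitor arrays at both times without passing. JUNB at 4 h stood at 6.80 and 6.72 with the inhibitor, against 6.28 and 6.46 with the inactive enantiomer, a change of 0.39 ± 0.16 (adjusted p = 0.287), and at 8 h its change was again 0.39 ± 0.16 (adjusted p = 0.213). JUND at 8 h stood at 6.34 and 6.05 with the inhibitor, against 6.02 and 5.52 with the inactive enantiomer (0.42 ± 0.16, adjusted p = 0.175), and at 4 h its change was 0.34 ± 0.16 (adjusted p = 0.366). In Raji neither passed, with changes between -0.07 and 0.22.

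ATF3 was at 6.02 and 6.24 in LP-1 at 4 h with the inhibitor, against 5.38 and 5.35 with the inactive enantiomer. It rose by 0.77 ± 0.12, or 1.70-fold (adjusted p = 0.00753). The call was lost without either array of the inactive enantiomer (highest adjusted p = 0.0864) and with LP-1 fitted alone (adjusted p = 0.0931). At 8 h LP-1 had 5.71 on both inhibitor arrays, against 5.15 and 5.40 with the inactive enantiomer, a change of 0.43 ± 0.12 that did not pass (adjusted p = 0.0631; 0.0422 without the probe sets of lowest mean). In Raji at 4 h ATF3 stood at 4.89 and 4.85 with the inhibitor, against 5.05 and 5.26 with the inactive enantiomer, so that both inhibitor arrays were the lower ones (-0.28 ± 0.12, adjusted p = 0.329). The Raji value at 8 h was -0.15 ± 0.12 (adjusted p = 0.736).

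IER2, a nuclear protein gene induced early by growth factors, stood at 5.99 and 5.76 in LP-1 at 8 h with the inhibitor, against 5.13 and 4.91 with the inactive enantiomer. It rose by 0.85 ± 0.18, or 1.80-fold (adjusted p = 0.0166), a call kept without inhibitor replicate 2 and lost without each of the other 3 arrays (highest adjusted p = 0.126). At 4 h LP-1 had 6.01 and 6.24 with the inhibitor, against 5.57 and 5.52 with the inactive enantiomer, and the change of 0.58 ± 0.18 did not pass as deposited (adjusted p = 0.138; 0.049 after quantile normalization). In Raji at 4 h the arrays stood at 5.55 and 5.91 with the inhibitor, against 4.82 and 5.31 with the inactive enantiomer (0.67 ± 0.18, adjusted p = 0.089). At 8 h Raji showed no difference of means, 0.00 with a 95% interval of -0.39 to 0.39.

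**Figure D2:**
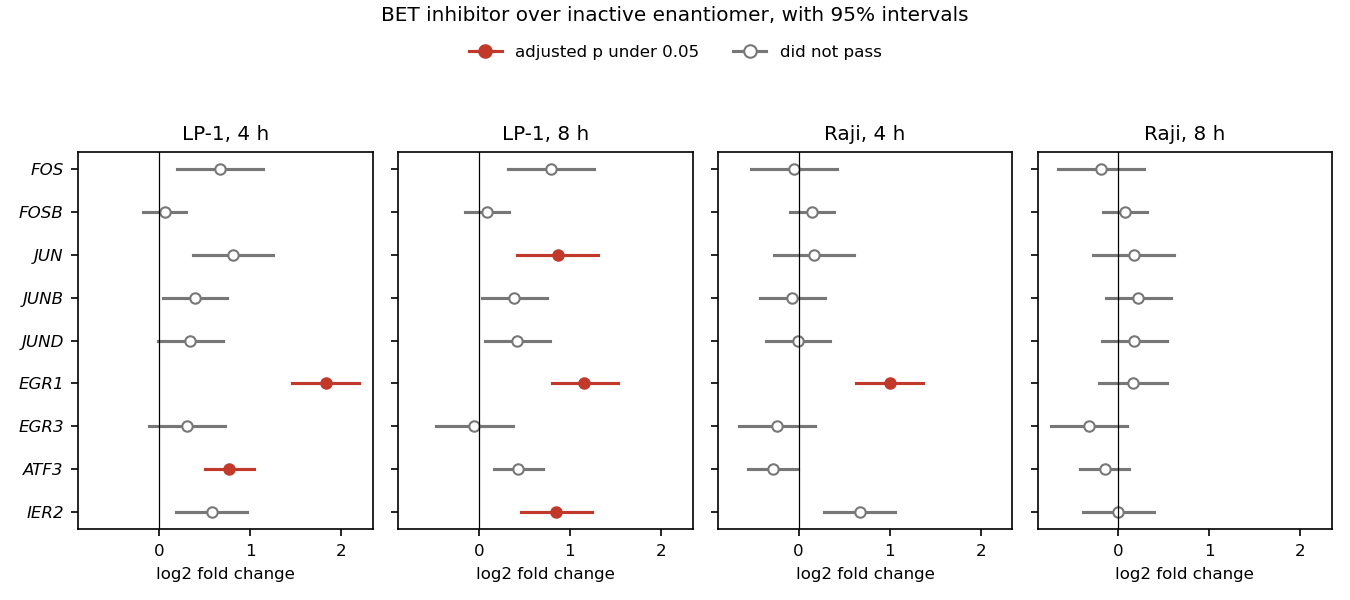
Log2 fold change of BET inhibitor over inactive enantiomer (points) with 95% intervals (lines) for the 9 genes in each line and time; filled red points passed at an adjusted p under 0.05. In LP-1 at 4 h all 9 points lie above 0, from 0.06 for FOSB to 1.83 for EGR1, and in Raji at 8 h they lie between -0.32 and 0.22.

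All 9 genes had values above 0 in LP-1 at 4 h and 8 of 9 at 8 h, the exception being EGR3. These counts were the same after quantile normalization and with arrays centred on their medians. Both inhibitor arrays were above both arrays of the inactive enantiomer for 8 of 9 genes in LP-1 at 4 h and for 7 of 9 at 8 h, where 17.6% and 27.9% of all probe sets were. In Raji 4 of 9 values were above 0 at 4 h and 6 of 9 at 8 h, or 5 of 9 at 8 h after quantile normalization. Both Raji inhibitor arrays were above both others for 3 of 9 genes at 4 h and 4 of 9 at 8 h, against 23.5% and 20.3% of all probe sets. They were below both others for 2 of 9 genes at 4 h, EGR3 and ATF3, and for 1 of 9 at 8 h, ATF3. The share of all probe sets that lay below is not given here.

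Whether the lines responded differently was tested as the response of Raji minus the response of LP-1. ATF3 was called at 4 h: its response was -0.28 in Raji and 0.77 in LP-1, a difference of -1.05 ± 0.18 (adjusted p = 0.0461). It was the 1 member called of 9, and 0.114% of all probe sets were called in that comparison. That share was 2.20% without LP-1 inhibitor replicate 2 and 0% without LP-1 inactive enantiomer replicate 2, both at 4 h. The call was lost without 7 of the 8 arrays that enter it, in turn (highest adjusted p = 0.199), and with arrays centred on their medians (adjusted p = 0.0521). At 8 h 0 of 9 members were called by limma, 5 of 9 had an unadjusted p under 0.05, and 0.245% of all probe sets were called while 9.04% had an unadjusted p under 0.05.

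For EGR1 the response in Raji minus that in LP-1 was -0.83 ± 0.24 at 4 h, with an adjusted p of 0.153, and -1.0 ± 0.24 at 8 h, with an adjusted p of 0.14, and neither value passed. At 8 h all 9 differences were below 0, from -1.0 for EGR1 to -0.02 for FOSB, and at 4 h 7 of 9 were, with FOSB and IER2 each at 0.09. Over all probe sets the median difference was 0.09 at 4 h and -0.07 at 8 h.

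**Figure D3:**
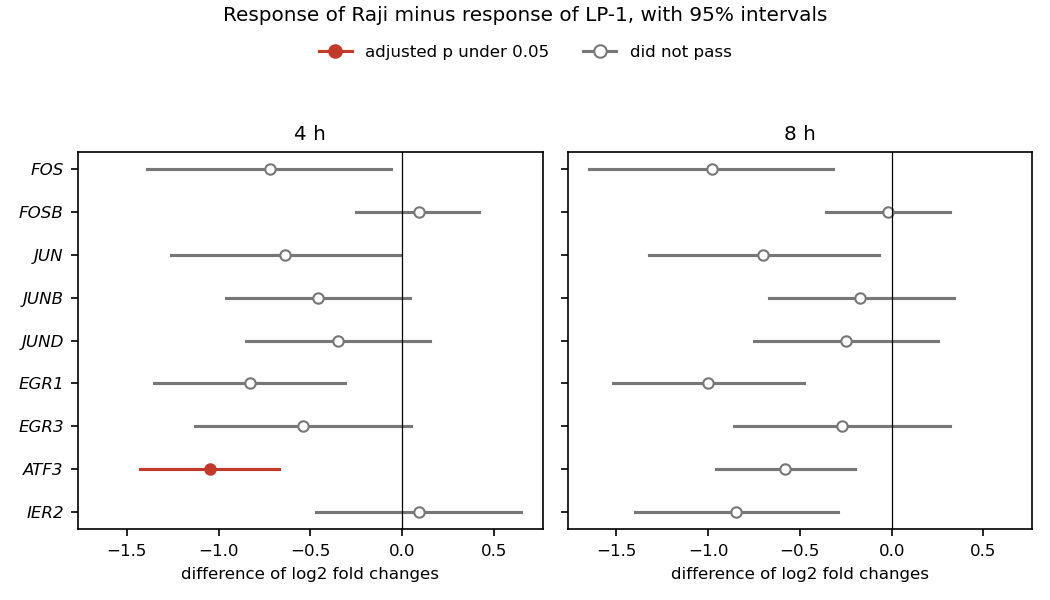
Difference of log2 fold changes, response of Raji minus response of LP-1, for the 9 genes at 4 h and 8 h, with 95% intervals; the filled red point passed at an adjusted p under 0.05. ATF3 at 4 h (-1.05) is the point that passed, and all 9 points lie at or below -0.02 at 8 h.

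The response at 8 h was also set against the response at 4 h within each line. EGR1 had the largest difference of the 9 genes in both lines, -0.67 ± 0.24 in LP-1 (adjusted p = 0.246) and -0.84 ± 0.24 in Raji (adjusted p = 0.559). IER2 in Raji had -0.67 ± 0.26 (adjusted p = 0.789). By limma 0 of 9 members were called in LP-1 and 0 of 9 in Raji, as were 0% of all probe sets in each line. In LP-1 this rested on single arrays, since 560 probe sets (2.54%) were called without inhibitor replicate 2 at 4 h and 25 higher and 60 lower ones without inhibitor replicate 2 at 8 h. At an unadjusted p under 0.05 there were 1 and 2 members, and 13.2% and 5.71% of all probe sets.

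EGR1 was lower in LP-1 after 8 h with the inactive enantiomer than in untreated cells at 0 h, and no other member passed. Compound and time in culture cannot be told apart here. EGR1 stood at 4.96 and 5.37 with the inactive enantiomer at 8 h, against 6.13 and 6.32 in untreated LP-1, and the fall was -1.06 ± 0.17 (adjusted p = 0.0269). It was 1 of 9 members called, where 0.504% of all probe sets were. The call was lost without inactive enantiomer replicate 1 or without either untreated array (highest adjusted p = 0.167), after quantile normalization (adjusted p = 0.0736), with arrays centred on their medians (adjusted p = 0.0522) and with LP-1 fitted alone (adjusted p = 0.17). The rise of EGR1 with the inhibitor over the inactive enantiomer at 8 h is therefore measured from a level that was lower than at 0 h. In LP-1 at 8 h FOS changed by -0.67 ± 0.22 (adjusted p = 0.171) and IER2 by -0.50 ± 0.18 (adjusted p = 0.215) with the inactive enantiomer, all arrays below the untreated ones. Neither difference passed. The changes of IER2 and FOS with the inhibitor over the inactive enantiomer at 8 h were taken against these lower means. Set against untreated LP-1, the inhibitor at 8 h gave 0.35 ± 0.18 for IER2 (limma, adjusted p = 0.316). For FOS it gave 0.12 ± 0.22 with overlapping arrays (adjusted p = 0.835), and neither passed.

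At 4 h in LP-1, limma called 0 of 9 members for the inactive enantiomer over untreated, 0 of 9 had an unadjusted p under 0.05, and 0.0136% of all probe sets were called (4.95% at an unadjusted p under 0.05). In Raji it called 0 of 9 at either time, with 0% of all probe sets called at 4 h and 0% at 8 h. At an unadjusted p under 0.05 there was 1 member at 4 h, IER2, and 0 at 8 h, against 7.91% and 4.52% of all probe sets. IER2 in Raji at 4 h stood at 4.82 and 5.31 with the inactive enantiomer, against 5.63 and 5.49 in untreated cells (-0.50 ± 0.18, adjusted p = 0.537). The positive change of IER2 in Raji at 4 h over the inactive enantiomer was taken against this lower mean, whose difference from untreated cells did not pass.

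The inhibitor was also set against untreated cells, a comparison that shares the untreated arrays with the one just given. In LP-1 at 4 h EGR1 (1.84 ± 0.17, adjusted p = 0.000173), ATF3 (0.93 ± 0.12, adjusted p = 0.00144) and JUN (0.77 ± 0.20, adjusted p = 0.0414) rose, 3 of 9 members, with 6.73% of all probe sets called. At 8 h ATF3 alone rose (0.51 ± 0.12, adjusted p = 0.0249), 1 of 9, with 7.66% of all probe sets called, and EGR1 was at 6.26 and 6.40 with the inhibitor, against 6.13 and 6.32 in untreated cells (0.11 ± 0.17, adjusted p = 0.801). In Raji at 4 h EGR1 rose (0.78 ± 0.17, adjusted p = 0.0446), 1 of 9, with 1.26% of all probe sets called. At 8 h in Raji 0 of 9 passed by limma and 0 of 9 had an unadjusted p under 0.05, with 2.26% of all probe sets called and 14.1% at an unadjusted p under 0.05. The calls of JUN in LP-1 and of EGR1 in Raji did not survive the removal of any 1 array of the 4 (highest adjusted p = 0.193 and 0.302), and that of ATF3 at 8 h without 3 of the 4 (highest adjusted p = 0.204).

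Between the untreated lines 1 of 9 members passed, where 24.3% of all probe sets did. JUN stood at 4.78 and 4.73 in untreated Raji, against 5.88 and 5.93 in untreated LP-1 (-1.15 ± 0.20, adjusted p = 0.000867), and this call was kept without each of the 4 arrays. EGR1 stood at 6.62 and 6.56 in untreated Raji, against 6.13 and 6.32 in untreated LP-1 (0.36 ± 0.17, adjusted p = 0.159), and it passed after quantile normalization (0.63, adjusted p = 0.00879) and with arrays centred on their medians (0.50, adjusted p = 0.0448). For the other 7 genes the differences were between -0.41 (FOS) and 0.05 (EGR3).

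The order of the group means shows where the inhibitor groups stand. For 7 of the 9 genes, all but JUND and EGR3, the LP-1 inhibitor group at 4 h had the highest mean of the 10. EGR1 ran from LP-1 with the inhibitor at 4 h (8.07 ± 0.18, SD, n = 2) through Raji with the inhibitor at 4 h (7.38 ± 0.01) and 8 h (6.73 ± 0.08), each apart from the next, to a stretch of untreated and inactive enantiomer groups whose arrays overlap, and ended with LP-1 on the inactive enantiomer at 8 h (5.17 ± 0.29). LP-1 with the inhibitor at 8 h (6.33 ± 0.10) lay inside that stretch.

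JUN had its 5 LP-1 groups above its 5 Raji groups, with the inhibitor groups on top (6.68 ± 0.03 at 4 h and 6.55 ± 0.03 at 8 h) and then untreated LP-1 (5.90 ± 0.04) overlapping the inactive enantiomer at 4 h (5.87 ± 0.04). No neighbours among the 5 Raji groups were apart. For ATF3 the LP-1 inhibitor groups at 4 h and 8 h were each apart from the next lower group, and Raji with the inhibitor at 4 h was the lowest (4.87 ± 0.03), apart from Raji with the inhibitor at 8 h (5.08 ± 0.07). For FOS every group overlapped the next, from LP-1 with the inhibitor at 4 h (5.70 ± 0.14) to LP-1 on the inactive enantiomer at 8 h (4.65 ± 0.07).

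The other genes of the pathway were counted in 5 lists. Of 21 measured other immediate early genes, 4 rose and 2 fell in LP-1 at 4 h, with a median of 0.26, and 6 rose and 1 fell at 8 h, with a median of 0.15. In Raji 1 fell at 4 h and, at 8 h, 1 rose and 1 fell, with medians of 0.05 and -0.01. Over all probe sets 2.28% and 5.73% were called in LP-1 at 4 h and 8 h, with medians of -0.04 and 0.06. In Raji these shares were 1.78% and 1.88%, with medians of 0.01 and 0.00. The same shares stand beside the other lists. ZFP36, which directs the decay of AU-rich mRNAs, averaged 7.63 with the inhibitor in LP-1 at 4 h, against 6.30 with the inactive enantiomer (1.33 ± 0.15, adjusted p = 0.000928), and it reached 7.39 at 8 h, against 6.33 (1.06 ± 0.15, adjusted p = 0.00163). NFKBIA, the inhibitor of NF-kB, averaged 7.89 with the inhibitor at 4 h, against 6.73 with the inactive enantiomer (1.16 ± 0.16, adjusted p = 0.00406). At 8 h it averaged 7.63, against 6.73 (0.90 ± 0.16, adjusted p = 0.00814). The NFKBIA calls were lost without 1 array at 4 h and without 2 at 8 h (highest adjusted p = 0.0525 and 0.0745).

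MYC, itself an immediate early gene of lymphocytes, moved the other way: it averaged 7.28 with the inhibitor in LP-1 at 4 h, against 9.59 with the inactive enantiomer (adjusted p = 5.25e-05), and in Raji it changed by -1.40 ± 0.16 at both times (adjusted p = 0.00129 and 0.00101). The second gene of the list that fell in LP-1 at 4 h was TNFAIP3, a brake on NF-kB (-1.30 ± 0.19, adjusted p = 0.00415), and the other rises were in GADD45B (0.73 ± 0.16, adjusted p = 0.0286) and PPP1R15A (0.97 ± 0.22, adjusted p = 0.0399), a stress-induced phosphatase subunit. Each lost its call without at least 1 of the 4 arrays (highest adjusted p = 0.0565, 0.233 and 0.256). At 8 h the other rises in LP-1 were in the phosphatase gene DUSP1 (1.37 ± 0.28, adjusted p = 0.0127), the transcription factor gene KLF6 (1.29 ± 0.21, adjusted p = 0.00392), the polo-like kinase gene PLK2 (1.38 ± 0.27, adjusted p = 0.0115) and again PPP1R15A (adjusted p = 0.0206). KLF6 kept its call without each of the 4 arrays, and the others lost theirs without 2 or 3 of them (highest adjusted p = 0.11 for DUSP1, 0.0968 for PLK2 and 0.178 for PPP1R15A). TNFAIP3, GADD45B, PPP1R15A, DUSP1, KLF6 and PLK2 were named after their values were seen. In Raji CD69, an early activation marker of lymphocytes, rose at 8 h (1.29 ± 0.22, adjusted p = 0.013; highest adjusted p = 0.11 without 1 array).

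Among 12 measured other AP-1 dimer partners none passed at 4 h in either line or at 8 h in Raji by limma, and ATF2 (0.63 ± 0.13, adjusted p = 0.0158) and ATF7 (0.52 ± 0.13, adjusted p = 0.037) rose in LP-1 at 8 h. ATF2 lost its call without any 1 of the 4 arrays (highest adjusted p = 0.1), and ATF7 without 3 of them (highest adjusted p = 0.279) and with its probe sets averaged (0.37, adjusted p = 0.526). Of 10 measured genes for EGR4, the NAB corepressors of EGR proteins, SRF, TCF factors and CREB, ELK3, a TCF factor, fell in LP-1 at 4 h (-1.17 ± 0.21, adjusted p = 0.0129; highest adjusted p = 0.123 without 1 array). At 8 h CREB1, the factor that binds the cyclic AMP response element, rose (0.91 ± 0.15, adjusted p = 0.00541), as did the SRF coactivator MRTFA (0.61 ± 0.13, adjusted p = 0.0176; highest adjusted p = 0.153 without 1 array). None of the 10 passed in Raji. For both lists the share of all probe sets called in LP-1 was 2.28% at 4 h and 5.73% at 8 h.

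Of 9 measured MAP kinase pathway kinases RPS6KA5, the nuclear kinase MSK1, rose in LP-1 at 8 h (0.70 ± 0.17, adjusted p = 0.0288). MAPK8, the kinase JNK1 that phosphorylates JUN, rose in Raji at the same time (0.82 ± 0.19, adjusted p = 0.0467). At 8 h 5.73% of all probe sets were called in LP-1 and 1.88% in Raji. Neither call survived the removal of any single array (highest adjusted p = 0.173 and 0.26). Of 18 measured genes that textbooks give as AP-1 or EGR targets none passed at 4 h in either line. In LP-1 at 8 h TGFB1 (0.90 ± 0.15, adjusted p = 0.00452) and the stress gene GADD45A (0.71 ± 0.15, adjusted p = 0.0146) rose and the adhesion molecule gene ICAM1 fell (-0.67 ± 0.16, adjusted p = 0.0277), and in Raji at 8 h none passed. The calls of GADD45A and ICAM1 were each lost without 3 of the 4 arrays (highest adjusted p = 0.121 and 0.161). With each line fitted alone, the calls of MYC, ZFP36, KLF6, CREB1 and CD69 were kept, while the other calls named in these lists were lost, with adjusted p from 0.0509 for ELK3 to 0.162 for ATF7.

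**Figure D4:**
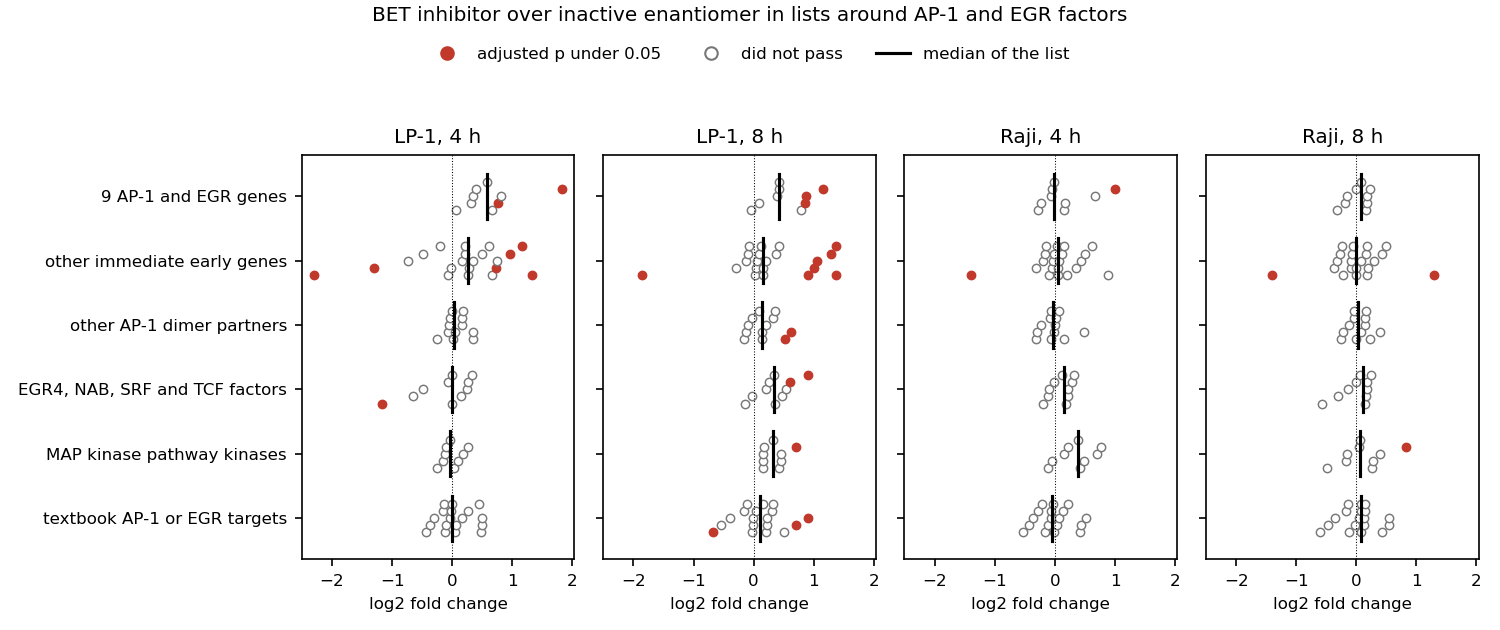
Log2 fold change of BET inhibitor over inactive enantiomer for each gene of 6 lists (points, spread vertically for legibility) in each line and time, with the median of each list as a bar; filled red points passed at an adjusted p under 0.05. The median of the 9 AP-1 and EGR genes is 0.58 in LP-1 at 4 h and -0.01 in Raji at 4 h, and the leftmost point in every panel is MYC.

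Likeness among the 9 genes was described over the 10 group means, with the mean of each line removed. Pearson's r was 0.88 between JUN and JUNB, 0.87 between JUN and IER2, 0.85 between EGR1 and IER2, 0.83 between JUN and ATF3 and 0.79 between FOS and EGR1. EGR3 stood apart from the others, with r between -0.29 (EGR1) and 0.22 (ATF3). These points share arrays and the scale of each array, and each r rests on 10 groups.

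The 3 genes most like each member by the same measure, among about 7115 genes with at least median variation, were as follows. For EGR1 they were EIF1 (r = 0.927), CDKL3 and PERM1; for ATF3, OPN4 (0.99), HMHB1 and AMIGO2; and for JUN, USP26 (0.961), CYP3A43 and EFNB2. JUNB had KANK2 (0.952), MADCAM1 and ASCL2, JUND had PLA2G15 (0.945), ADAMTS13 and PPP1R15A, and IER2 had LGALS3 (0.942), TNNT1 and CHRNA10. FOS had H3C6 (0.931), DOK4 and CD300E, FOSB had FZD2 (0.978), ZFP3 and ERI3, and EGR3 had CYP4F12 (0.932), UBASH3B and POU2F2. No member was among the 3 most like genes of another member, and FOSB could not be, since its own variation lay below the median. These genes were picked as the highest of about 7115 values of r over 10 groups, and no p is given for them.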

How the data were processed

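Per the labels' protocols, total RNA was amplified into sense cDNA, which was fragmented, given biotin and put on Affymetrix exon arrays. Per the submitters' processing notes, the authors summarised the arrays with RMA in Affymetrix Expression Console on hg19, with versions not given in the sources used here. The deposited values are log2 expression per probe set and were used as deposited. Probe sets were named by the platform's annotation and updated by Entrez identifier (14404 of 14432 with 1 symbol).

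All 20 arrays entered 1 linear model with a mean per group, fitted with limma 3.58.1 in R 4.3.3 (10 residual and 2.59 prior degrees of freedom). The 17 comparisons had two-sided p-values, adjusted by Benjamini and Hochberg's method across the 22011 probe sets, and the fit was tested on simulated data. The members and lists were chosen with earlier results of these data known. Members are always named, other genes as up to 3 called per list and line with the smallest p, and 3 per member by likeness. A further 6 immediate early genes called in LP-1 were named after their values were seen. Another 7 settings were tried, and each of the 20 arrays was left out in turn. The number of arrays limits the precision. The p-values measure the spread between replicates that the labels call biological. The labels do not say whether replicate numbers pair samples.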

Additional observations from a re-analysis of the deposited data

Results flagged for a closer look

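ATF3 responded differently in the lines at 4 h by the test of the difference itself, the response of Raji minus that of LP-1 being -1.05 ± 0.18 on the log2 scale (limma, adjusted p = 0.0461). Both Raji inhibitor arrays lay below both arrays of the inactive enantiomer and both LP-1 inhibitor arrays lay above theirs. In LP-1 at 4 h 17.6% of all probe sets lay above in this way. The share that lay below in Raji is not given here. The call was lost without 7 of the 8 arrays in turn (highest adjusted p = 0.199) and with arrays centred on their medians (adjusted p = 0.0521). Groups of 2 arrays are too small for a test of single outlying arrays.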

How the results depend on the processing

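Leaving out each array in turn moved the counts of members called over the inactive enantiomer to 1 to 2 in LP-1 at 4 h (2 with all arrays), 1 to 3 at 8 h (3), 0 to 1 in Raji at 4 h (1) and 0 at 8 h (0). For the 4 comparisons with untreated cells together, the range was 0 to 1 for the inactive enantiomer (1) and 2 to 5 for the inhibitor (5), for the 2 differences between lines 0 to 1 (1), for the 2 differences between times 0 (0) and between untreated lines 1 (1). Quantile normalization gave 4 of 9 members in LP-1 at 4 h. There 126 probe sets were called higher and 256 lower, against 83 and 419 as deposited. It gave 0 of 36 member tests for the inactive enantiomer over untreated and 9 of 36 for the inhibitor over untreated. In the latter comparison 260 probe sets were called higher and 559 lower in LP-1 at 4 h, against 160 and 1321 as deposited. Between the untreated lines it gave 2 of 9, with 2566 probe sets called higher and 3031 lower, against 1495 and 3847. Centring arrays on their medians gave 0 for the inactive enantiomer over untreated, 0 for the differences between lines and 2 of 9 between the untreated lines. Between the untreated lines 2231 probe sets were then called higher and 3185 lower. Leaving out the 7337 probe sets of lowest mean left fewer probe sets to adjust over. It gave 5 of 9 members in LP-1 at 8 h and 8 of 36 member tests for the inhibitor over untreated. In LP-1 at 8 h 966 of the 14674 probe sets left were called higher and 520 lower, against 828 and 434 of 22011. Fitting each line alone, with fewer arrays, gave 0 in Raji at 4 h and 0 for the inactive enantiomer over untreated. In Raji at 4 h 36 probe sets were then called higher and 13 lower, against 316 and 75 with all arrays in 1 fit. What caused the changes under any of these settings was not tested. Averaging the probe sets of a gene changed no member's call, since each member has a single probe set. Of 1044 member values under the 7 other settings, 1013 kept their side of the threshold, 9 lost and 22 gained a call, and 0 called values changed sign. Of 756 values without 1 array, 721 kept their side, 33 lost and 2 gained a call. Here too 0 called values changed sign, while some values that were not called did.

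With the replicate number as a block within each line, the differences between lines gave 0 members called, in place of 1 (ATF3 at 4 h, adjusted p = 0.0605), and JUND over untreated in LP-1 passed at 4 h and 8 h (adjusted p = 0.0485 and 0.0374). Deviations of same-numbered arrays from their group means correlated at -0.0346 to 0.121 in LP-1 and -0.16 to 0.0507 in Raji. Each range is over 10 pairs of groups, and the labels do not say whether the numbers pair samples.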
